A study of Mus musculus with 23 samples.

Results

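The genes described here are 36 genes of amino acid catabolism, the breakdown of amino acids to carbon skeletons and nitrogen, as the liver carries it out. They were taken as a list of gene symbols and matched on the symbol in the count table, which found 36 of 36 members among 27179 genes. Most of them belong to a few pathways, with 4 genes for tyrosine, 6 for tryptophan, 9 for methionine and other sulfur amino acids, and 4 for glycine and serine. The others are 3 genes each for histidine, the branched chain amino acids, and proline with hydroxyproline, 3 transaminase genes, and 1 gene for lysine. All 36 members were measured in every mouse, with at least 204 reads per gene and mouse.

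RNA was sequenced from liver tissue without visible tumors, taken from 15 female mice in 3 groups. The 6 Ctrl mice carried Alb-Cre, Trp53 flx/flx and Icmt flx/+ with wild-type Braf. The 6 ABpIF/+ mice carried the same Alb-Cre, Trp53 flx/flx and Icmt flx/+ alleles together with BrafCA/+, a conditional allele that makes an oncogenic form of the kinase BRAF after recombination. The 3 ABpIF/F mice differed from ABpIF/+ in carrying Icmt flx/flx, so that both copies of Icmt, the methyltransferase that finishes the processing of prenylated proteins such as RAS, can be removed. All groups thus share Cre and the loss of Trp53, which encodes p53, so no comparison is with a wild-type liver. Cre stands under the albumin promoter, which is active in hepatocytes, and cells without Cre activity keep their floxed alleles. Per the study, the Icmt flx allele is hypomorphic, with reduced expression even before excision. The tissue was chosen free of visible tumors, but per the study each ABpIF/F mouse bore liver tumors, at ages that differed widely between the mice. Ages were not tied to single mice in the sources used here, so age and tumor burden cannot be told apart from the genotype or between the ABpIF/F mice. Per the study, ABpIF/+ mice lost weight and developed signs of illness, whereas Ctrl and ABpIF/F mice kept gaining weight. In both comparisons that hold ABpIF/+, weight loss and illness cannot be told apart from the genotype. BrafCA/+ follows the study's methods, whereas the genotype labels of both ABpI groups read BRAF +/+. A single Ctrl mouse, BG3, carries the strain label of the ABpI mice, while the other 5 carry another one, so strain label and the absence of BrafCA cannot be told apart except through BG3.

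Hepatocytes take up amino acids from portal blood and degrade most of those that are not built into protein. Each pathway has an entry enzyme that often sets its rate, such as tyrosine aminotransferase or tryptophan dioxygenase, and downstream steps that lead to intermediates of the citric acid cycle, to ketone bodies or to glucose. Methionine is treated in a cycle that makes the methyl donor S-adenosylmethionine, and its sulfur passes through cystathionine to cysteine and taurine. Glucocorticoids and glucagon, which rise in fasting, are textbook inducers of several of these enzymes.

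The reads counted on genes numbered between 24742910 and 32262649 per mouse. Levels are given as CPM, a gene's share of its library after TMM normalization, and differences as log2 fold changes of the first group minus the second. Calls required an adjusted p under 0.01 together with a change of 2-fold or more, which is 1 on the log2 scale. The targeted gene *Icmt* averaged 30.8 ± 2.72 CPM in the 6 Ctrl mice, 32.7 ± 3.49 in the 6 ABpIF/+ mice and 15.8 ± 0.711 in the 3 ABpIF/F mice (mean ± SD), with every ABpIF/F mouse below all others. The hepatocyte marker *Alb* lay between 76790 and 186385 CPM, and 14 hepatocyte identity genes summed to between 113200 and 248300 CPM. Exon bases are shared with another gene in 7 members, and for *Afmid* (46.6% of its exon bases, with *Gm20708* and *Tk1*), *Bckdha* (61.7%, with *B3gnt8*) and *Aldh4a1* (32.5%, with *Gm21969*) the share is above 10%. The strand setting of the counting was not given in the sources used here, so part of the reads of these 3 genes could come from those neighbours.

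The 36 members together took 2.35% ± 0.285 (SD, n = 6) of the counted reads in Ctrl, 2.52% ± 0.462 (SD, n = 6) in ABpIF/+ and 1.22% ± 0.238 (SD, n = 3) in ABpIF/F livers. The share lay between 1.89% and 2.6% in Ctrl mice and between 2.15% and 3.42% in ABpIF/+ mice, and its range in ABpIF/F mice, 0.967% to 1.44%, overlapped with neither. Bulk RNA cannot tell fewer cells that express a gene from less RNA per cell. Per kilobase of exon, the most abundant members in Ctrl were *Gnmt* (1188 CPM per kb), *Hpd* (1062), *Mat1a* (926) and *Tat* (856.5), and the least abundant were *Acmsd* (6.27) and *Sdsl* (7.29). In ABpIF/+ livers *Mat1a* (1812 CPM per kb) and *Tat* (1782) stood first. In ABpIF/F livers *Mat1a* (506 CPM per kb) and *Gnmt* (405) stood first, and *Csad* (3.50) was last.

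ABpIF/+ and Ctrl mice differ in the Braf allele and, per the study, in weight loss and illness. In ABpIF/+ vs Ctrl 9 of 36 members were called, with 4 higher (*Tat*, *Acmsd*, *Ahcy*, *Sdsl*) and 5 lower (*Hgd*, *Kynu*, *Haao*, *Csad*, *Aldh4a1*). Among all genes averaging at least 1 CPM, 17.6% were called in either direction, 8.21% higher and 9.39% lower (13.4%, 6.26% and 7.13% of genes with a read), against 25% of the members. The members' median log2 fold change was -0.215, beside 0.02 over genes of at least 1 CPM. Without TMM, scaled on counted reads alone, the median gene moved by -0.16 and the split became 1 higher and 7 lower, with *Tat*, *Acmsd* and *Ahcy* no longer called. The groups did not overlap in TMM-scaled CPM for 19 members, 10 higher and 9 lower. Of all genes of at least 1 CPM, 31.3% did not overlap, 15.5% higher and 15.8% lower. Without TMM the groups overlapped for *Tat*, *Tdo2*, *Ftcd*, *Gldc* and *Bckdhb*, which were among the higher ones. The 27 members that were not called ranged from -0.972 to 1.40 in log2 fold change. With BG3 as the only Ctrl mouse, 0 members were called higher and 4 lower, the lone mouse being assumed to vary like the other groups. At an adjusted p under 0.05 with any fold change, 12 members were higher and 11 lower, where 24.1% of genes of at least 1 CPM were higher and 23.3% lower. A log2 change of 2 or more left 1 member, where 5.42% of those genes passed.

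In ABpIF/F vs Ctrl, 13 members were called lower and 0 higher (*Tat*, *Hpd*, *Hgd*, *Afmid*, *Haao*, *Gnmt*, *Ahcy*, *Cth*, *Csad*, *Prodh*, *Aldh4a1*, *Gpt2* and *Aass*). Of all genes with at least 1 CPM, 5.04% were called lower and 7.53% higher (3.17% and 6.06%, or 9.24% in either direction, of genes with a read), against 36.1% of the members lower. Beside the 0 called higher by edgeR, 1 member (*Gldc*) was higher at an adjusted p under 0.05 with any fold change, and DESeq2 also called 0 higher. All 19 members whose groups did not overlap were lower, where 31.6% of all genes of at least 1 CPM did not overlap and 16.5% were lower without overlap. The median log2 fold change of the members was -0.767 and that of all genes of at least 1 CPM -0.000772. The 23 members that were not called ranged from -1.09 to 0.655. With BG3 as the only Ctrl mouse, 4 were called, all lower. The looser rule gave 1 member higher and 22 lower, where 16.1% of genes of at least 1 CPM were higher and 15.7% lower, and a log2 change of 2 or more left 2 members, where 4.44% passed.

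ABpIF/F and ABpIF/+ mice differ in the second Icmt allele and, per the study, in weight loss and illness. In ABpIF/F vs ABpIF/+ 11 members were called lower and 0 higher (*Tat*, *Hpd*, *Afmid*, *Mat1a*, *Ahcy*, *Sdsl*, *Prodh*, *Got1*, *Gpt*, *Gpt2* and *Aass*). Here 3.72% of all genes of at least 1 CPM were called lower and 8.50% higher (2.35% and 7.32% of genes with a read), against 30.6% of the members lower. Beside these 0 calls by edgeR, 2 members were higher at an adjusted p under 0.05 with any fold change, *Kynu* and *Cbs*, and DESeq2 called 0 higher. The groups did not overlap in TMM-scaled CPM for 18 members, 17 lower and 1 higher (*Kynu*). Of all genes of at least 1 CPM, 34.2% did not overlap, 19.2% lower and 14.9% higher, and of genes with a read 24.9%. Without TMM the groups overlapped for *Dbt*, which was among the lower ones. The members' median log2 fold change was -0.711, beside -0.038 over genes of at least 1 CPM. Members not called ranged from -1.38 to 0.726. The looser rule gave 2 members higher and 21 lower, where 16.6% of genes of at least 1 CPM were higher and 15.8% lower, and a log2 change of 2 or more left 4 members, where 3.61% passed. Without the ABpIF/F mouse BG38 the count of called members was 7. Comparisons with Ctrl share the 6 Ctrl mice, and each other pair of comparisons shares a group too, so their values are set side by side only.

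**Figure D1:**
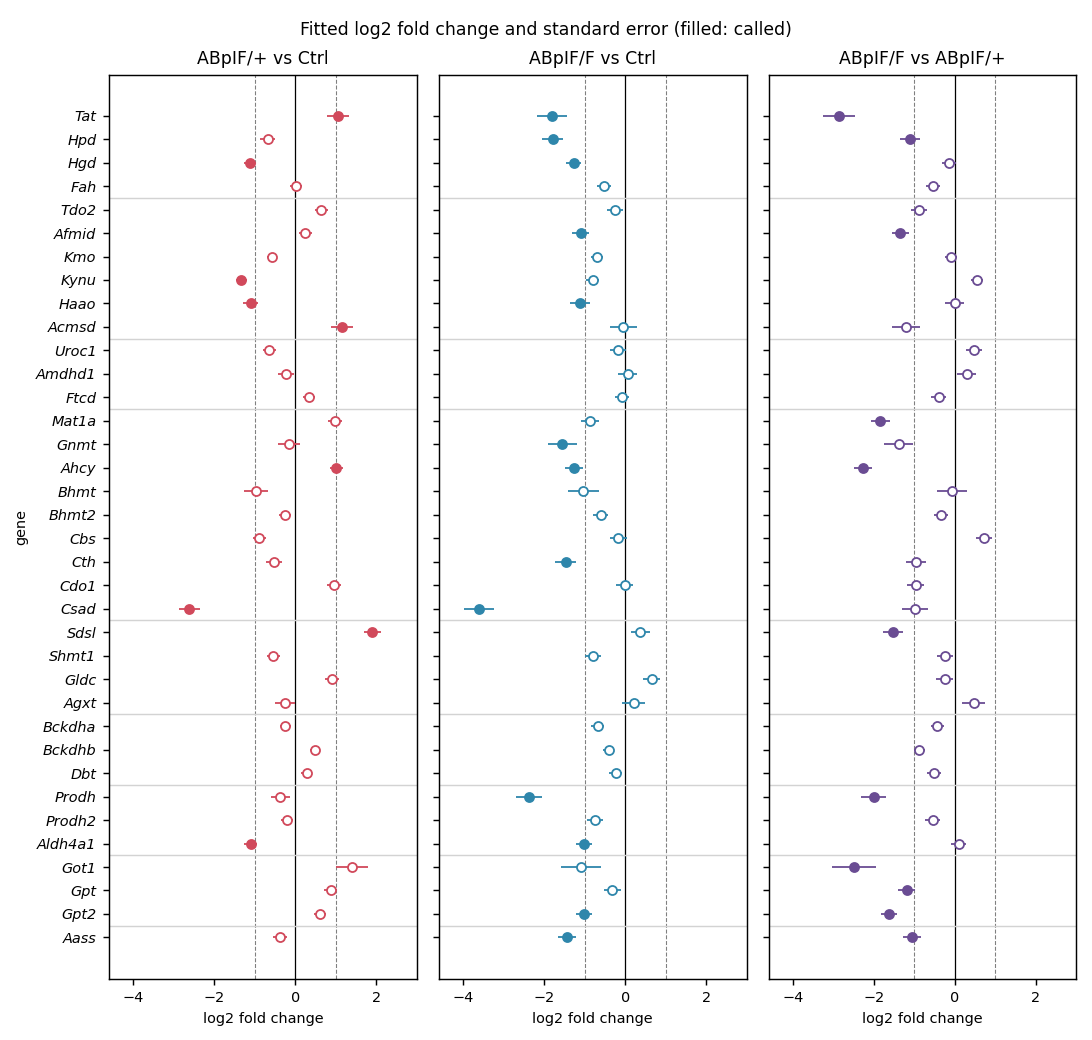
Fitted log2 fold change (x axis) of each member (y axis, ordered by pathway) with its standard error, in ABpIF/+ vs Ctrl, ABpIF/F vs Ctrl and ABpIF/F vs ABpIF/+. Filled points were called and dashed lines mark a 2-fold change; called points lie on both sides of 0 in the first panel (4 higher, 5 lower) and only below 0 in the other panels (13 and 11 lower).

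The mice of a group were not alike in these genes. The coefficient of variation of a member within a group had a median of 18.0% in Ctrl, 15.6% in ABpIF/+ and 32.8% in ABpIF/F livers. Within ABpIF/F, mouse BG38 was the lowest in CPM for 31 of 36 members and mouse BG183 the highest for 27. The TMM factor was 1.24 for BG38, beside 0.9998 for BG183 and 0.9414 for BG90. This lowers every CPM value of BG38, so part of the ranking comes from the scaling. As a share of counted reads, which has no TMM, the members summed to 0.967% in BG38, 1.44% in BG183 and 1.25% in BG90. Within Ctrl, malpa459 was the lowest for 23 members. Within ABpIF/+, BG55 was the highest for 18 members and BG30 the lowest for 14.

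**Figure D2:**
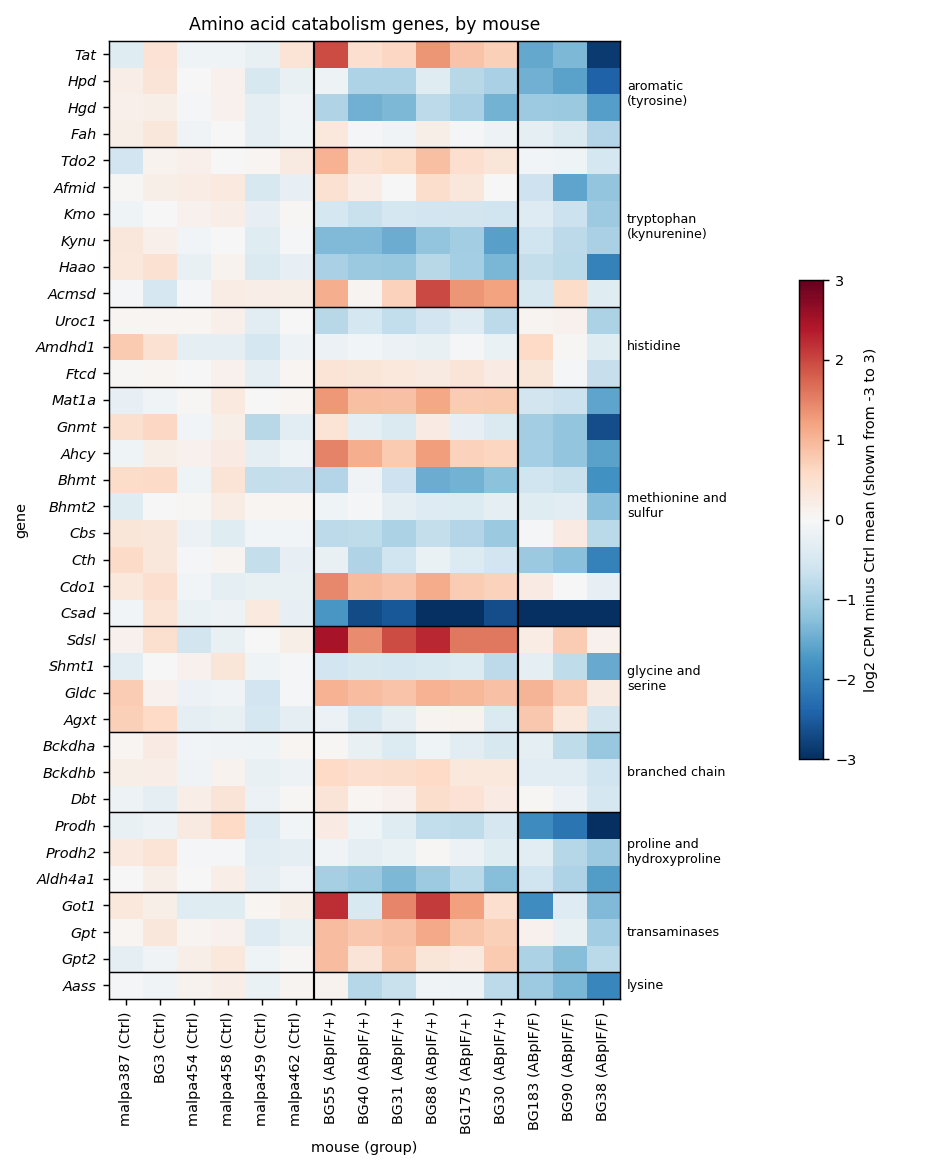
Log2 CPM of the 36 members (rows, by pathway) in each of the 15 mice (columns, by group) minus the Ctrl mean, on a colour scale from -3 to 3. Most rows of the 3 ABpIF/F mice are blue, deepest in BG38, after TMM scaling the lowest of the group for 31 members, while the ABpIF/+ columns hold red rows (*Tat*, *Ahcy*, *Sdsl*) beside blue ones (*Csad*, *Kynu*, *Hgd*).

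Tyrosine is broken down by TAT, HPD, HGD and FAH in that order, ending in fumarate and acetoacetate. *Tat* (chr8:109990437-109999803, plus strand, in GENCODE M21 on GRCm38, as for all gene positions here), which encodes the aminotransferase of the first step, ranged from 1561 to 2743 CPM (median 1839) in the 6 Ctrl mice, from 2862 to 7793 CPM (median 3483) in the 6 ABpIF/+ mice, and was 695, 796 and 275 CPM in the 3 ABpIF/F mice. In TMM-scaled CPM every ABpIF/+ mouse was above every Ctrl mouse, and every ABpIF/F mouse was below both groups. Without TMM the ABpIF/+ mouse BG40 lay below the Ctrl mice BG3 and malpa462. The log2 fold change was 1.06 (SE 0.27, edgeR adjusted p = 0.00657) in ABpIF/+ vs Ctrl, -1.81 (SE 0.36, edgeR adjusted p = 0.00141) in ABpIF/F vs Ctrl and -2.86 (SE 0.39, edgeR adjusted p = 5.09e-05) in ABpIF/F vs ABpIF/+. The higher level in ABpIF/+ vs Ctrl was near the limit of the call and lost it without any 1 of BG175 (1.08, adjusted p = 0.0111), BG55 (0.80, adjusted p = 0.0155), BG88 (1.02, adjusted p = 0.0168), malpa387 (0.99, adjusted p = 0.0168), malpa454 (1.03, adjusted p = 0.0171), malpa458 (1.03, adjusted p = 0.017) or malpa459 (1.01, adjusted p = 0.0179). BG55 stood highest among the ABpIF/+ mice.

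*Hpd*, the gene of the dioxygenase that makes homogentisate, ranged from 1576 to 2926 CPM (median 2318) in the 6 Ctrl mice, from 1117 to 2003 CPM (median 1206) in the 6 ABpIF/+ mice, and was 819, 723 and 415 CPM in the 3 ABpIF/F mice. All 3 ABpIF/F mice were below all others, whereas Ctrl and ABpIF/+ mice overlapped. The log2 fold change of *Hpd* in ABpIF/F livers was -1.79 (SE 0.26, edgeR adjusted p = 2.93e-05) vs Ctrl and -1.11 (SE 0.25, edgeR adjusted p = 0.00299) vs ABpIF/+, and the difference of ABpIF/+ from Ctrl was -0.69 (SE 0.20, edgeR adjusted p = 0.0106), which was not called. Against ABpIF/+ the call was lost without BG38 (-0.87, adjusted p = 0.0287), BG55 (-0.98, adjusted p = 0.00753) or BG90 (-1.19, adjusted p = 0.0102). *Hgd*, the homogentisate dioxygenase gene (chr16:37580153-37632020, plus strand), ranged from 443 to 603 CPM (median 546) in the 6 Ctrl mice, from 198 to 311 CPM (median 241) in the 6 ABpIF/+ mice, and was 252, 247 and 169 CPM in the 3 ABpIF/F mice. Its Ctrl mice were above all ABpI mice, and the ABpIF/+ and ABpIF/F mice overlapped. The log2 fold change of *Hgd* was -1.13 (SE 0.15, edgeR adjusted p = 4.2e-06) in ABpIF/+ vs Ctrl, -1.27 (SE 0.19, edgeR adjusted p = 4.58e-05) in ABpIF/F vs Ctrl and -0.15 (SE 0.18, edgeR adjusted p = 0.783) between the ABpI groups. *Fah*, the gene of the last step, averaged 622 ± 101, 627 ± 81.7 and 433 ± 89.4 CPM (SD) in Ctrl, ABpIF/+ and ABpIF/F livers and was called in none of the comparisons. Among these 4 genes *Tat* alone was called in opposite directions, while *Hgd* was called lower in both ABpI groups.

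Tryptophan is opened by TDO2, released as kynurenine by AFMID, and then passes KMO, KYNU and HAAO on the way to quinolinate, while ACMSD turns its intermediate away from NAD synthesis. *Tdo2* averaged 968 ± 174, 1501 ± 301 and 811 ± 129 CPM (SD) in Ctrl, ABpIF/+ and ABpIF/F livers and differed by less than 2-fold in each comparison. In TMM-scaled CPM its ABpIF/+ mice were above all others, but without TMM BG30 lay below the Ctrl mouse malpa462. *Afmid*, the formamidase gene, ranged from 104 to 179 CPM (median 158) in the 6 Ctrl mice, from 145 to 213 CPM (median 179) in the 6 ABpIF/+ mice, and was 95.1, 48.9 and 64.8 CPM in the 3 ABpIF/F mice. ABpIF/F mice were below all others and Ctrl and ABpIF/+ mice overlapped. Its log2 fold change was -1.10 (SE 0.21, edgeR adjusted p = 0.000518) vs Ctrl, lost without BG90 (-0.90, adjusted p = 0.00832), and -1.35 (SE 0.21, edgeR adjusted p = 0.00011) vs ABpIF/+.

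*Kmo* and *Kynu*, genes of the hydroxylase and the kynureninase, were lower in both ABpI groups than in every Ctrl mouse. *Kmo* averaged 262 ± 30, 175 ± 6.38 and 163 ± 37.5 CPM (SD), under the 2-fold limit. *Kynu* ranged from 96.3 to 158 CPM (median 122) in the 6 Ctrl mice, from 40.1 to 60.2 CPM (median 49.5) in the 6 ABpIF/+ mice, and was 82, 72 and 62.7 CPM in the 3 ABpIF/F mice. The ABpIF/F mice lay between the other groups without touching either. The call in ABpIF/+ vs Ctrl was -1.34 (SE 0.13, edgeR adjusted p = 5.12e-08), beside -0.80 (SE 0.16, edgeR adjusted p = 0.001) in ABpIF/F vs Ctrl and 0.54 (SE 0.15, edgeR adjusted p = 0.0154) in ABpIF/F vs ABpIF/+, neither of which was called.

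*Haao*, the gene of the dioxygenase that forms the precursor of quinolinate, ranged from 333 to 623 CPM (median 437) in the 6 Ctrl mice, from 173 to 252 CPM (median 215) in the 6 ABpIF/+ mice, and was 273, 258 and 110.3 CPM in the 3 ABpIF/F mice. Both ABpI groups were below every Ctrl mouse and overlapped with each other. For *Haao* the log2 fold change was -1.11 (SE 0.19, edgeR adjusted p = 0.000141) in ABpIF/+ vs Ctrl and -1.11 (SE 0.25, edgeR adjusted p = 0.00247) in ABpIF/F vs Ctrl, the latter lost without BG38 (-0.80, adjusted p = 0.0173), and -0.01 (SE 0.24, edgeR adjusted p = 1) between the ABpI groups. *Acmsd*, at a low level per length, ranged from 12.3 to 20.5 CPM (median 18.4) in the 6 Ctrl mice, from 18.4 to 69.8 CPM (median 38.9) in the 6 ABpIF/+ mice, and was 12.6, 25.5 and 13.7 CPM in the 3 ABpIF/F mice. The ABpIF/+ mouse BG40 lay within the Ctrl range, and the other 5 were above it. The call of 1.16 (SE 0.27, edgeR adjusted p = 0.00497) in ABpIF/+ vs Ctrl was lost without BG175 (1.11, adjusted p = 0.0149), BG3 (1.07, adjusted p = 0.0155), BG30 (1.16, adjusted p = 0.0101), BG88 (0.92, adjusted p = 0.00608), malpa387 (1.15, adjusted p = 0.0126), malpa454 (1.15, adjusted p = 0.0132) or malpa462 (1.19, adjusted p = 0.0102), and no other comparison called it. Within the kynurenine pathway *Kynu* and *Haao* were thus called lower in ABpIF/+ livers, whereas *Acmsd*, on the side branch, was called higher.

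The 3 histidine genes were called in no comparison. *Uroc1*, encoding urocanase, averaged 509.8 ± 58.3 CPM (SD) in Ctrl, 327 ± 39.2 in ABpIF/+ and 453 ± 164 in ABpIF/F livers. *Amdhd1*, for the next step, averaged 257 ± 97.4, 219 ± 9.66 and 269 ± 89.5 CPM, and *Ftcd*, whose product hands the last carbon to folate, 383 ± 36.9, 482 ± 22.9 and 364 ± 126 CPM. Their log2 fold changes in ABpIF/F vs Ctrl lay between -0.171 and 0.0649, with overlap of the groups for all 3. In ABpIF/+ mice *Uroc1* was below and *Ftcd* above every Ctrl mouse, each by less than 2-fold. For *Ftcd* this held in TMM-scaled CPM, but the groups overlapped without TMM.

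In the methionine cycle, MAT1A makes S-adenosylmethionine, GNMT uses its methyl group on glycine, AHCY splits the resulting S-adenosylhomocysteine, and BHMT or BHMT2 turn homocysteine back into methionine. *Mat1a* ranged from 2681 to 3924 CPM (median 3199) in the 6 Ctrl mice, from 5351 to 7843 CPM (median 5962) in the 6 ABpIF/+ mice, and was 2161, 2036 and 1067 CPM in the 3 ABpIF/F mice. The 3 groups did not overlap, with ABpIF/+ highest and ABpIF/F lowest. For *Mat1a* the log2 fold change was 0.97 (SE 0.17, edgeR adjusted p = 0.000158) in ABpIF/+ vs Ctrl and -0.87 (SE 0.22, edgeR adjusted p = 0.00633) in ABpIF/F vs Ctrl, both just under the 2-fold limit, and -1.84 (SE 0.23, edgeR adjusted p = 1.13e-05) in ABpIF/F vs ABpIF/+, which was called. *Ahcy* (chr2:155059310-155074497, minus strand) ranged from 1089 to 1588 CPM (median 1337) in the 6 Ctrl mice, from 2095 to 3755 CPM (median 2551) in the 6 ABpIF/+ mice, and was 660.2, 589 and 439.5 CPM in the 3 ABpIF/F mice. Again the 3 groups did not overlap. Its log2 fold change was 1.01 (SE 0.17, edgeR adjusted p = 7.26e-05) in ABpIF/+ vs Ctrl, -1.26 (SE 0.22, edgeR adjusted p = 0.000209) in ABpIF/F vs Ctrl and -2.27 (SE 0.23, edgeR adjusted p = 9.98e-07) in ABpIF/F vs ABpIF/+. The first of these, at the 2-fold limit, was lost without BG55 (0.90, adjusted p = 0.000271), BG88 (0.97, adjusted p = 0.000361), malpa387 (0.98, adjusted p = 0.000255), malpa459 (0.96, adjusted p = 0.000328) or malpa462 (0.98, adjusted p = 0.000339).

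*Gnmt*, the most abundant member per length in Ctrl livers, ranged from 763 to 2079.5 CPM (median 1401) in the 6 Ctrl mice, from 1007 to 1799 CPM (median 1120.4) in the 6 ABpIF/+ mice, and was 654, 598 and 213 CPM in the 3 ABpIF/F mice. The ABpIF/F mice were below all others, with BG38 lowest, and Ctrl and ABpIF/+ mice overlapped. *Gnmt* had a log2 fold change of -1.55 (SE 0.36, edgeR adjusted p = 0.00491) in ABpIF/F vs Ctrl, a call lost without BG3 (-1.42, adjusted p = 0.0116), BG38 (-1.19, adjusted p = 0.0227) or BG90 (-1.73, adjusted p = 0.0122), and its difference from ABpIF/+ was -1.39 (SE 0.36, edgeR adjusted p = 0.0104), which missed the p limit. *Bhmt* averaged 2351 ± 901, 1199 ± 478 and 1146 ± 457 CPM (SD) and its neighbour and paralog *Bhmt2* 228 ± 28.8, 190.4 ± 17.4 and 150.4 ± 47.6 CPM, and neither was called in any comparison.

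In the transsulfuration branch CBS joins homocysteine to serine, CTH releases cysteine, CDO1 oxidizes it and CSAD makes hypotaurine, the precursor of taurine. *Cbs* averaged 521 ± 108, 281 ± 27.6 and 464 ± 158 CPM (SD) in the 3 groups. Its ABpIF/+ mice were below every Ctrl mouse, with a log2 fold change of -0.89 (SE 0.17, edgeR adjusted p = 0.000223), short of 2-fold. *Cth* ranged from 208 to 509 CPM (median 348) in the 6 Ctrl mice, from 182 to 297 CPM (median 243) in the 6 ABpIF/+ mice, and was 159, 142 and 83.3 CPM in the 3 ABpIF/F mice. ABpIF/F mice were below all others, and the log2 fold change of -1.47 (SE 0.26, edgeR adjusted p = 0.000253) vs Ctrl was called whereas -0.95 (SE 0.25, edgeR adjusted p = 0.00924) vs ABpIF/+ was short of 2-fold. *Cdo1* averaged 519 ± 125, 1007 ± 202 and 514 ± 86 CPM, with every ABpIF/+ mouse above every other mouse and log2 fold changes of 0.96 (SE 0.17, edgeR adjusted p = 0.000117) in ABpIF/+ vs Ctrl and -0.97 (SE 0.21, edgeR adjusted p = 0.00218) in ABpIF/F vs ABpIF/+, both short of 2-fold.

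*Csad* had the largest change of the 36 members in both comparisons with Ctrl. It ranged from 136 to 213 CPM (median 148) in the 6 Ctrl mice, from 16.5 to 48.3 CPM (median 25.2) in the 6 ABpIF/+ mice, and was 10.4, 10 and 19.7 CPM in the 3 ABpIF/F mice. Every ABpI mouse was below every Ctrl mouse, and the ABpIF/F and ABpIF/+ mice overlapped. For *Csad* the log2 fold change was -2.62 (SE 0.26, edgeR adjusted p = 1.09e-06) in ABpIF/+ vs Ctrl, a 6.15-fold lower level, and -3.61 (SE 0.37, edgeR adjusted p = 3.64e-06) in ABpIF/F vs Ctrl, a 12.2-fold lower level. These calls were kept in all 26 other settings run for each. Between the ABpI groups the difference was -0.99 (SE 0.32, edgeR adjusted p = 0.041), which was not called. In ABpIF/+ livers the consecutive genes *Cdo1* and *Csad* thus lay above and below every Ctrl mouse.

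**Figure D3:**
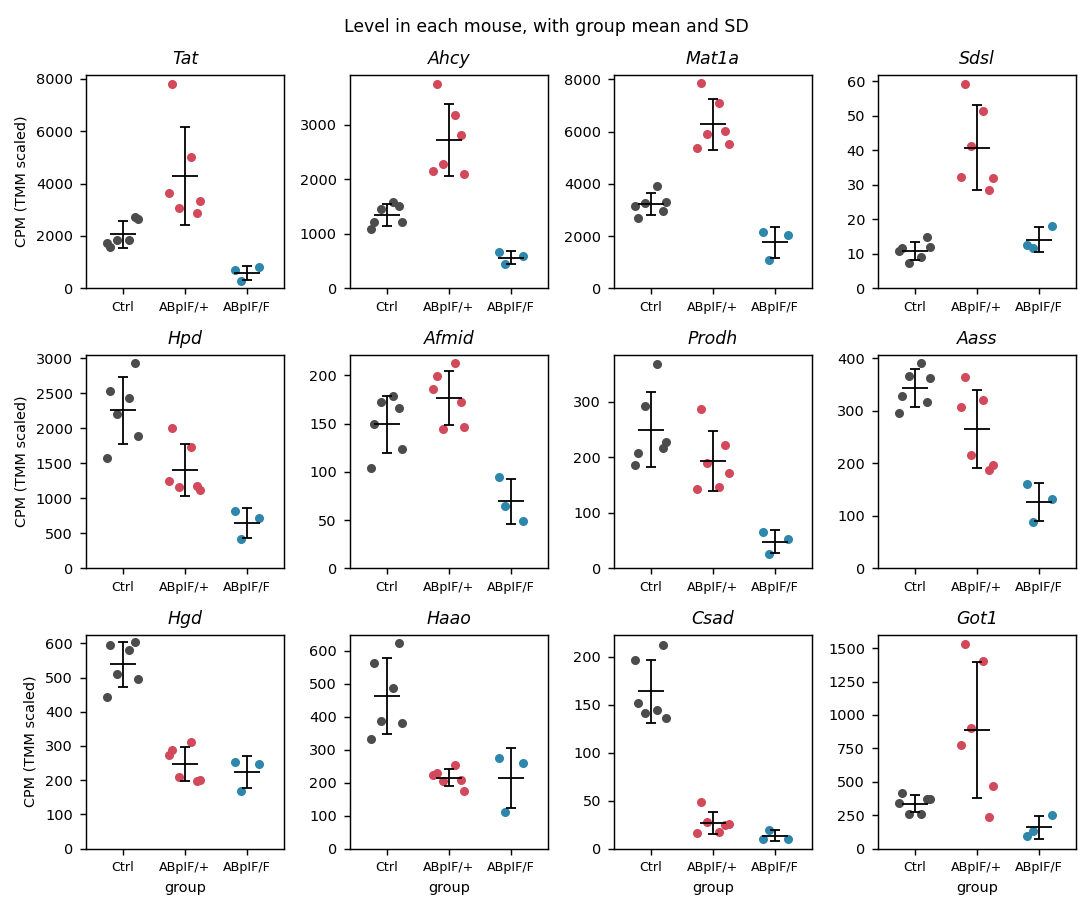
CPM (y axis, linear from 0) of 12 members in each mouse of the 3 groups (x axis), with the group mean and SD as bars. *Tat*, *Ahcy* and *Mat1a* form 3 separate ranges after TMM scaling with ABpIF/+ highest, although for *Tat* the Ctrl and ABpIF/+ mice overlap without TMM. *Hpd*, *Afmid*, *Prodh* and *Aass* are lowest in ABpIF/F, and *Hgd*, *Haao* and *Csad* are low in both ABpI groups. *Got1* spreads from 239 to 1528 CPM within ABpIF/+.

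Of the glycine and serine genes, *Sdsl*, a serine dehydratase-like gene, ranged from 7.21 to 14.8 CPM (median 11.2) in the 6 Ctrl mice, from 28.4 to 59.4 CPM (median 36.8) in the 6 ABpIF/+ mice, and was 12.5, 18.1 and 11.7 CPM in the 3 ABpIF/F mice. All 6 ABpIF/+ mice were above all others, and Ctrl and ABpIF/F mice overlapped. It was higher, with a log2 fold change of 1.90 (SE 0.20, edgeR adjusted p = 7.79e-07) in ABpIF/+ vs Ctrl and lower, with -1.53 (SE 0.25, edgeR adjusted p = 0.00034) in ABpIF/F vs ABpIF/+, and it was 0.37 (SE 0.24, edgeR adjusted p = 0.377) in ABpIF/F vs Ctrl. *Gldc*, the glycine decarboxylase gene, averaged 132 ± 44.5, 247 ± 15.2 and 208 ± 52 CPM (SD). Its log2 fold change in ABpIF/+ vs Ctrl was 0.90 (SE 0.17, edgeR adjusted p = 0.000323), short of 2-fold. Every ABpIF/+ mouse was above every Ctrl mouse in TMM-scaled CPM, but without TMM malpa387 lay within the ABpIF/+ range. *Shmt1* averaged 243 ± 39.4, 166 ± 14.6 and 140.3 ± 55.1 CPM, and *Agxt*, the gene of the peroxisomal glyoxylate aminotransferase, 329.6 ± 126, 276 ± 49.6 and 382 ± 168 CPM, and neither was called.

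The 3 branched chain genes, *Bckdha*, *Bckdhb* and *Dbt*, encode subunits of the ketoacid dehydrogenase complex that commits leucine, isoleucine and valine to breakdown. None of them was called in any comparison. Their log2 fold changes lay between -0.25 and 0.474 in ABpIF/+ vs Ctrl, between -0.681 and -0.232 in ABpIF/F vs Ctrl and between -0.879 and -0.431 in ABpIF/F vs ABpIF/+. *Bckdhb* averaged 82.6 ± 10.2, 115 ± 10.1 and 62.3 ± 6.77 CPM (SD) in Ctrl, ABpIF/+ and ABpIF/F livers. Its 3 groups did not overlap in TMM-scaled CPM, but without TMM the Ctrl mouse malpa387 lay within the ABpIF/+ range.

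Proline is oxidized by PRODH and hydroxyproline by PRODH2, and ALDH4A1 finishes both to glutamate or its hydroxylated form. *Prodh* ranged from 186 to 367 CPM (median 222) in the 6 Ctrl mice, from 144 to 287 CPM (median 180) in the 6 ABpIF/+ mice, and was 65.8, 53 and 25.7 CPM in the 3 ABpIF/F mice. All ABpIF/F mice were below all others, and Ctrl and ABpIF/+ mice overlapped. Its log2 fold change was -2.37 (SE 0.31, edgeR adjusted p = 2.64e-05) vs Ctrl, a 5.18-fold lower level, and -2.0 (SE 0.31, edgeR adjusted p = 0.000169) vs ABpIF/+, a 4.01-fold lower level, beside -0.37 (SE 0.23, edgeR adjusted p = 0.293) in ABpIF/+ vs Ctrl. *Prodh2* averaged 241 ± 50.8, 210.1 ± 20.6 and 144 ± 41.1 CPM (SD) and was called in no comparison. *Aldh4a1* (chr4:139622866-139649690, plus strand) ranged from 477 to 666 CPM (median 575) in the 6 Ctrl mice, from 226 to 332 CPM (median 267) in the 6 ABpIF/+ mice, and was 379, 304 and 179 CPM in the 3 ABpIF/F mice. Both ABpI groups were below every Ctrl mouse and overlapped with each other. *Aldh4a1* had a log2 fold change of -1.11 (SE 0.16, edgeR adjusted p = 1.07e-05) in ABpIF/+ vs Ctrl and -1.01 (SE 0.20, edgeR adjusted p = 0.000774) in ABpIF/F vs Ctrl, the latter lost without BG3 (-0.98, adjusted p = 0.00137), BG38 (-0.76, adjusted p = 0.00706) or malpa458 (-0.97, adjusted p = 0.00204).

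The transaminases GOT1, GPT and GPT2 move amino groups between aspartate or alanine and glutamate. *Got1*, the cytosolic aspartate aminotransferase gene, ranged from 256 to 414 CPM (median 358) in the 6 Ctrl mice, from 239 to 1528 CPM (median 840.3) in the 6 ABpIF/+ mice, and was 91, 251 and 131 CPM in the 3 ABpIF/F mice. ABpIF/+ mice differed widely among themselves, and BG40 lay below the lowest Ctrl mouse. The log2 fold change of *Got1* was -2.49 (SE 0.54, edgeR adjusted p = 0.00474) in ABpIF/F vs ABpIF/+, although BG40 at 239 CPM overlapped with the ABpIF/F mouse BG90 at 251, and this call was lost without BG183 (-2.22, adjusted p = 0.0262) or BG38 (-2.38, adjusted p = 0.0397). In ABpIF/+ vs Ctrl it was 1.40 (SE 0.39, edgeR adjusted p = 0.0159), not called. *Gpt*, the cytosolic alanine aminotransferase gene, ranged from 266 to 438 CPM (median 363) in the 6 Ctrl mice, from 565 to 766 CPM (median 627) in the 6 ABpIF/+ mice, and was 377, 298 and 169 CPM in the 3 ABpIF/F mice. Every ABpIF/+ mouse was above every other mouse. Its log2 fold change was -1.19 (SE 0.21, edgeR adjusted p = 0.00039) in ABpIF/F vs ABpIF/+, lost without BG38 (-0.93, adjusted p = 0.00298), and 0.87 (SE 0.17, edgeR adjusted p = 0.000315) in ABpIF/+ vs Ctrl, short of 2-fold. *Gpt2*, its mitochondrial counterpart, ranged from 354 to 545 CPM (median 426) in the 6 Ctrl mice, from 538 to 823 CPM (median 659.5) in the 6 ABpIF/+ mice, and was 225, 181 and 248 CPM in the 3 ABpIF/F mice. The ABpIF/F mice were below all others. *Gpt2* had a log2 fold change of -1.02 (SE 0.19, edgeR adjusted p = 0.000418) in ABpIF/F vs Ctrl, lost without BG90 (-0.90, adjusted p = 0.00663), malpa454 (-0.98, adjusted p = 0.0012) or malpa458 (-0.95, adjusted p = 0.00116), and -1.62 (SE 0.19, edgeR adjusted p = 6.97e-06) in ABpIF/F vs ABpIF/+. All 3 transaminase genes were called lower in ABpIF/F vs ABpIF/+.

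*Aass*, which encodes the enzyme of the first steps of lysine breakdown, ranged from 296 to 392 CPM (median 346) in the 6 Ctrl mice, from 188 to 365 CPM (median 262) in the 6 ABpIF/+ mice, and was 161, 132 and 87.6 CPM in the 3 ABpIF/F mice. The ABpIF/F mice were below all others and Ctrl and ABpIF/+ mice overlapped. *Aass* had a log2 fold change of -1.44 (SE 0.23, edgeR adjusted p = 6.8e-05) vs Ctrl and -1.07 (SE 0.22, edgeR adjusted p = 0.00138) vs ABpIF/+, the latter lost without BG38 (-0.86, adjusted p = 0.0164) or BG55 (-0.96, adjusted p = 0.00343).

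For pairs of genes with like reactions, the ratio of counts within a mouse does not depend on library scaling. These ratios were tested by 9 exact permutation tests (two-sided), chosen after the values of the genes were seen, for 3 pairs in 3 comparisons. The log2 ratio *Prodh*/*Prodh2* averaged 0.0323 ± 0.474 (SD, n = 6) in Ctrl, -0.161 ± 0.422 (SD, n = 6) in ABpIF/+ and -1.65 ± 0.416 (SD, n = 3) in ABpIF/F livers. All ABpIF/F mice, at -2.11 to -1.31, were below all others. This gave an exact permutation p = 0.0119 against either group, the smallest that 84 arrangements allow, and 0.0536 after Benjamini-Hochberg adjustment. The log2 ratio *Gpt*/*Gpt2* averaged -0.334 ± 0.312 in Ctrl, -0.0453 ± 0.341 in ABpIF/+ and 0.304 ± 0.743 in ABpIF/F livers, and *Bhmt*/*Bhmt2* 3.28 ± 0.691, 2.57 ± 0.427 and 2.89 ± 0.168 (SD), with adjusted exact permutation p between 0.182 and 0.452 for all 6 of these tests.

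**Figure D4:**
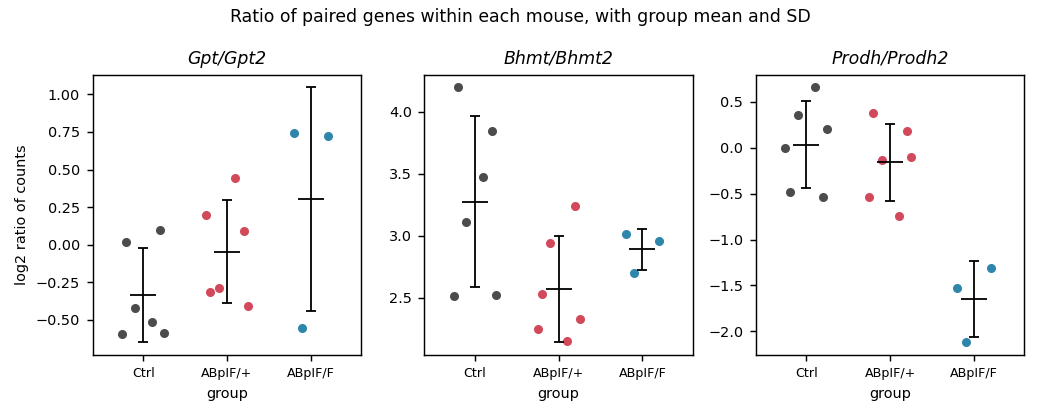
Log2 ratio of the counts of paired genes (y axis) in each mouse of the 3 groups (x axis), with group mean and SD. *Prodh*/*Prodh2* is between -2.11 and -1.31 in the 3 ABpIF/F mice and above them in every other mouse, while the ranges of the other pairs overlap.

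Promoter sequence is shown for both members that were called higher in ABpIF/+ and lower in ABpIF/F livers (*Tat*, *Ahcy*) and for a pair called lower in both (*Hgd*, *Aldh4a1*). Each is 250 bases before the RefSeq start (GRCm38.p6), read in the direction of the gene, and capitals mark the CCAAT box letters (CCAAT), the GC box letters (GGGCGG) and the TATA box letters (TATAAA) on either strand.
Tat, chr8:109990186-109990435, plus strand: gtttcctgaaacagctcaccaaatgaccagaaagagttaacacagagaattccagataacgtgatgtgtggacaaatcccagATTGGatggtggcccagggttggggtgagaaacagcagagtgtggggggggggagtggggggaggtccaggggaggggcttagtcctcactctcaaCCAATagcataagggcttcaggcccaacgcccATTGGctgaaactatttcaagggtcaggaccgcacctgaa
Ahcy, chr2:155074498-155074747, minus strand: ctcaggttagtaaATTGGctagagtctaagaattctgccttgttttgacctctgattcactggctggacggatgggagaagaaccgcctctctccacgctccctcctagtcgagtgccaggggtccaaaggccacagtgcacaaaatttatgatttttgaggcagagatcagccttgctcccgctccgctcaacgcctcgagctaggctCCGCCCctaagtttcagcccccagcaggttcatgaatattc
Hgd, chr16:37579903-37580152, plus strand: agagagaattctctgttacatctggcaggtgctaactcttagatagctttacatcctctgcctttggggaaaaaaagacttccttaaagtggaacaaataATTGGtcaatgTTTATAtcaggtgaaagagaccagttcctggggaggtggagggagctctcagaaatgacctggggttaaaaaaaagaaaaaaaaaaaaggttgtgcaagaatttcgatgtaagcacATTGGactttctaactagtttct
Aldh4a1, chr4:139622644-139622893, plus strand: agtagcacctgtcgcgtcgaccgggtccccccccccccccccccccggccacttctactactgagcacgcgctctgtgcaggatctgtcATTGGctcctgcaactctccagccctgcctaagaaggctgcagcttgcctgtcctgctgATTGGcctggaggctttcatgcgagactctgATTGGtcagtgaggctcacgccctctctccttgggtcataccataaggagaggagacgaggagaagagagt

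The *Tat* window holds the CCAAT letters 3 times, at 168, 72 and 40 bases before the start, and that of *Aldh4a1* 3 times, at 161, 102 and 71. The *Ahcy* window has 1 CCAAT at 237 and 1 GGGCGG at 41 bases before the start. The *Hgd* window has CCAAT at 150 and 23 and TATAAA at 139. RefSeq windows were matched for 29 of 36 members, some with more than 1, giving 31 windows. CCAAT was in 16 of the 31 (51.6%) and in 33.8% of all 32851 windows of this length, and GGGCGG in 12 (38.7%) and 32.7%. TATAAA was in 3 (9.68%, all windows 12.4%) and CACGTG in 1 (*Cbs*; 3.23%, all windows 6.02%). None of the 31 held the cyclic AMP response element TGACGTCA (all windows 1.55%), the forkhead motif TGTTTAC (3.17%), the PAR bZIP motif TTATGTAA (0.819%), the C/EBP motif TTGCGCAA (0.164%) or the full palindromic glucocorticoid response element (0.00913%). Both strands were searched. Among the windows shown, that of *Aldh4a1* runs past the GENCODE start of the gene, which lies upstream of the RefSeq start. Windows of other members, such as *Kmo*, *Fah* and *Haao*, lie inside the GENCODE gene. The motif shares thus include windows that are not upstream of the GENCODE start. A match describes the letters of a window and not a bound site.

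Of 80 further genes of amino acid catabolism, 6 were called higher and 15 lower in ABpIF/+ vs Ctrl, 4 and 18 in ABpIF/F vs Ctrl, and 5 and 6 in ABpIF/F vs ABpIF/+. Called in either direction were 26.2%, 27.5% and 13.8% of them, beside 17.6%, 12.6% and 12.2% of all genes of at least 1 CPM. The last share was thus near that of all genes. The median log2 fold changes of the 80 genes were -0.382, -0.6 and -0.152. Without TMM these counts were 5 and 21, 4 and 17, and 6 and 4, with the last median at 0.0152. *Oat*, the ornithine aminotransferase gene and also a pericentral marker, averaged 1014 CPM in Ctrl, 311 in ABpIF/+ and 134 in ABpIF/F livers, with log2 fold changes of -1.71 (SE 0.33, edgeR adjusted p = 0.000856) in ABpIF/+ vs Ctrl and -2.92 (SE 0.45, edgeR adjusted p = 0.000256) in ABpIF/F vs Ctrl. *Sds*, serine dehydratase, averaged 314, 909 and 207 CPM, with 1.54 (SE 0.36, edgeR adjusted p = 0.00468) in ABpIF/+ vs Ctrl and -2.13 (SE 0.48, edgeR adjusted p = 0.00578) in ABpIF/F vs ABpIF/+. Like *Sdsl*, it was called higher in the former and lower in the latter.

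*Arg1*, the last enzyme of the urea cycle, was called higher in ABpIF/+ vs Ctrl (1.23 in log2 fold change) and lower in ABpIF/F vs ABpIF/+ (-1.44). *Asns*, which makes asparagine, averaged 0.774 CPM in Ctrl, 35.3 in ABpIF/+ and 15.5 in ABpIF/F livers, with 5.46 (SE 0.55, edgeR adjusted p = 6.02e-06) in ABpIF/+ vs Ctrl and 4.28 (SE 0.58, edgeR adjusted p = 0.000167) in ABpIF/F vs Ctrl. *Suox*, sulfite oxidase at the end of cysteine oxidation, was called lower in both, with log2 fold changes of -1.81 (SE 0.16, edgeR adjusted p = 1.04e-08) and -1.70 (SE 0.20, edgeR adjusted p = 2.49e-06). *Ido2*, a further tryptophan dioxygenase gene, was called lower in both too, with -2.18 (SE 0.21, edgeR adjusted p = 4.29e-07) and -1.34 (SE 0.27, edgeR adjusted p = 0.00144). Of 17 amino acid transporter genes, 2 were called higher and 1 lower in ABpIF/+ vs Ctrl, which was 1 higher and 2 lower without TMM, and 1 higher and 5 lower in ABpIF/F vs Ctrl, among them *Slc38a4* at -1.51 (SE 0.19, edgeR adjusted p = 5.2e-06). The transporters called in either direction were 17.6% and 35.3%, where 17.6% and 12.6% of all genes of at least 1 CPM were called.

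The weight loss that the study reports for ABpIF/+ mice cannot be told apart from their genotype here. Genes known to respond to glucocorticoids, glucagon or fasting differed between the groups as well, and their part in the members' levels was not tested. Of 16 found of 18 listed, 8 were called higher and 1 lower in ABpIF/+ vs Ctrl (median log2 fold change 1.61), 2 higher and 4 lower in ABpIF/F vs Ctrl, and 0 higher and 7 lower in ABpIF/F vs ABpIF/+ (median -1.19). These were 56.2%, 37.5% and 43.8% of the list, where 17.6%, 12.6% and 12.2% of all genes of at least 1 CPM were called. *Fkbp5*, a glucocorticoid receptor target, averaged 69.3 CPM in Ctrl, 310.2 in ABpIF/+ and 80.3 in ABpIF/F livers, and *Pck1*, the gluconeogenic carboxykinase gene, 3093, 4075 and 954 CPM. Of 22 regulators of these pathways, 2 were called higher in ABpIF/+ vs Ctrl, 1 higher and 1 lower in ABpIF/F vs Ctrl, and 3 lower in ABpIF/F vs ABpIF/+, the latter being *Ppargc1a* at -1.36 (SE 0.25, edgeR adjusted p = 0.000672), *Klf15* at -1.12 (SE 0.23, edgeR adjusted p = 0.00128) and *Ppara* at -1.06 (SE 0.27, edgeR adjusted p = 0.00811). *Ppara* was also the regulator called lower in ABpIF/F vs Ctrl, at -1.66 (SE 0.28, edgeR adjusted p = 0.000209). The regulators called in the 3 comparisons were 9.09%, 9.09% and 13.6%, which is near or below the shares of all genes. Without TMM, 1 of the 22 was called lower in ABpIF/F vs ABpIF/+ and the counts of the first list were 8 and 1, 2 and 4, and 0 and 5.

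Of 15 clock genes found, 2 were called higher in ABpIF/+ vs Ctrl, 5 lower in ABpIF/F vs Ctrl, and 1 higher and 5 lower in ABpIF/F vs ABpIF/+. These were 13.3%, 33.3% and 40%, where 17.6%, 12.6% and 12.2% of all genes of at least 1 CPM were called. A score from log2 CPM of *Dbp*, *Tef*, *Nr1d1*, *Nr1d2*, *Per3* and *Ciart* minus *Bmal1*, *Npas2* and *Clock* was -3.05, -5.64 and -4.24 in the ABpIF/F mice, -4.03 in the Ctrl mouse malpa387, and between 0.735 and 2.54 in all others. The score thus nearly coincides with the ABpIF/F group, and the 2 cannot be told apart except through malpa387. Calls lost with the score in the fit therefore do not show what part it has. With this score as a covariate, 9 members were still called in ABpIF/+ vs Ctrl, 6 in ABpIF/F vs Ctrl, with 5 of the 13 kept (*Hpd*, *Hgd*, *Cth*, *Csad*, *Prodh*), and 2 in ABpIF/F vs ABpIF/+, with 1 of the 11 kept (*Ahcy*). *Tat* then differed by -1.47 on the log2 scale (edgeR adjusted p = 0.145) in ABpIF/F vs Ctrl and -2.51 (edgeR adjusted p = 0.0194) in ABpIF/F vs ABpIF/+. The members' medians were then -0.651 in ABpIF/F vs Ctrl and -0.788 in ABpIF/F vs ABpIF/+, beside -0.767 and -0.711 without the score. The Ctrl mouse malpa387, whose score lay in the range of the ABpIF/F mice, was the lowest Ctrl mouse for 6 of the 36 members and the highest for 7. It was lowest for *Tat*, *Tdo2*, *Mat1a*, *Bhmt2*, *Shmt1* and *Gpt2*, whose log2 fold changes were negative in both comparisons of ABpIF/F. The same held for most of the 36 members. It was highest for *Kynu*, *Amdhd1*, *Cbs*, *Agxt*, *Gldc*, *Cth* and *Got1*. In ABpIF/F vs ABpIF/+ the first 4 of these had positive log2 fold changes and the others negative ones. In ABpIF/F vs Ctrl those of *Amdhd1*, *Agxt* and *Gldc* were positive and those of *Kynu*, *Cbs*, *Cth* and *Got1* negative. What this resemblance means for the members was not tested. Times of tissue collection were not given in the sources used here.

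Several lists of markers of other cells and of liver zones differed between the groups as well, and their part in the results was not tested. Of all genes of at least 1 CPM, 8.21% were called higher and 9.39% lower in ABpIF/+ vs Ctrl. In ABpIF/F vs Ctrl these shares were 7.53% and 5.04%, and in ABpIF/F vs ABpIF/+ 8.5% and 3.72%. Of 14 pericentral hepatocyte genes, 11 were called lower in ABpIF/+ vs Ctrl, 10 lower in ABpIF/F vs Ctrl, and 1 higher and 2 lower in ABpIF/F vs ABpIF/+ (2 higher and 1 lower with RLE scaling), their summed level being 11790 to 16200 CPM in Ctrl, 3812 to 7413 in ABpIF/+ and 1629 to 3843 in ABpIF/F livers. Of 15 periportal genes, 3 were called higher and 4 lower in ABpIF/+ vs Ctrl, 2 higher and 7 lower in ABpIF/F vs Ctrl, and 1 higher and 6 lower in ABpIF/F vs ABpIF/+ (median log2 fold change -0.565), with sums of 14360 to 19090, 13870 to 22390 and 5227 to 9156 CPM. Cholangiocyte markers (10 genes) summed to 51.3 to 89.4 CPM in Ctrl, 55.5 to 176.9 in ABpIF/+ and 239.7 to 1204 in ABpIF/F livers, with 7 called higher in ABpIF/F vs Ctrl and 6 vs ABpIF/+. Neutrophil markers (10 genes, *Ly6g* at 0 in Ctrl) summed to 2.54 to 4.38, 3.06 to 11.8 and 5.22 to 101.9 CPM, with 9 called higher in ABpIF/F vs Ctrl and 5 vs ABpIF/+. Macrophage, lymphocyte, endothelial and stellate and fibroblast markers, 10 genes each, were called higher for 1 gene each in ABpIF/F vs Ctrl, lower for 6, 3, 2 and 7 genes in ABpIF/+ vs Ctrl, and higher for 7, 5, 2 and 9 genes in ABpIF/F vs ABpIF/+. A single gene of 10 is 10%, near the 7.53% of all genes of at least 1 CPM called higher in ABpIF/F vs Ctrl. Hepatocyte identity genes, 14 found, summed to 113200 to 149400 CPM in Ctrl, 181200 to 248300 in ABpIF/+ and 140400 to 231100 in ABpIF/F livers, with 1 called higher in ABpIF/+ vs Ctrl and 3 higher and 1 lower in ABpIF/F vs Ctrl. Of 7 red blood cell markers found, 1 was called higher in ABpIF/+ vs Ctrl, and of 10 genes of kidney and pancreas, which summed to 9.43 to 28.1 CPM per mouse and were at 0 for 4 to 8 genes per group, 1 was called higher in ABpIF/F vs ABpIF/+.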

How the data were processed

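Bulk RNA-seq counts of liver from 15 mice (23 samples are listed, with 1 count column per mouse) were used. Per the labels and the study's methods, the authors aligned reads with HISAT2 to mm10 and counted them per gene with featureCounts 2.0.8, and the deposited values are raw counts. The annotation and strand setting were not given in the sources used here. In the other deposited file, 5 count columns headed by bare numbers were not used; the 10 columns that could be compared were equal, so that table was not analysed separately. Its columns of fold changes and p-values from the authors' comparisons were not used.

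Counts were tested with edgeR 4.0.16 (R 4.3.3): TMM scaling, the robust quasi-likelihood F-test in its legacy form, 1 fit of all 15 mice in 3 groups, and Benjamini-Hochberg adjustment over 27179 genes. The standard error was the log2 fold change divided by the square root of F. Between 24742910 and 32262649 reads were counted per mouse, and the spread between mice, not counting error, limits precision at the members' counts. Alternatives were RLE or no TMM, DESeq2 1.42.0, other forms of the test, filters and thresholds, each mouse left out, BG3 as only Ctrl mouse, and a clock gene score as covariate.

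All members are accounted for, and every member called is named with its values. From other lists up to 4 called genes with the largest change per comparison could be named, and from the further catabolism genes up to 12. The members and lists were chosen with earlier results of these data known. The ratio tests of paired genes and the rescaling of lists were added after seeing the data. Promoter windows came from RefSeq on GRCm38.p6. Values of 2 genes of the other lists are not reported here.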

Additional observations from a re-analysis of the deposited data

Results flagged for a closer look

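Single mice stood apart for 2 members, where chance alone marks about 1 in 20 groups and 72 groups were examined. *Uroc1* was 397.8 CPM in the Ctrl mouse malpa459, below the other Ctrl mice at 507.1 to 567.6 CPM. *Csad* was 48.29 CPM in the ABpIF/+ mouse BG55, above the other ABpIF/+ mice at 16.47 to 27.54 CPM.

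Calls relative to Ctrl went in opposite directions in the ABpI groups for 2 members, *Tat* and *Ahcy*, each called higher in ABpIF/+ and lower in ABpIF/F. The higher call was lost in 10 of 26 other settings for *Tat* and in 9 of 26 for *Ahcy*, among them without TMM. Other members changed sign without both calls. Of these, *Mat1a* (0.97 and -0.87) and *Gpt2* (0.60 and -1.02) had an edgeR adjusted p under 0.01 each way. The difference between the ABpI groups is the comparison of ABpIF/F with ABpIF/+, which gave a log2 fold change of -2.86 for *Tat* and -2.27 for *Ahcy*.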

How the results depend on the processing

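Among the members' counts, their medians and the called members, no direction reversed in the alternatives run. Whether groups overlapped was judged on TMM-scaled CPM. Without TMM, overlap appeared for *Tat*, *Tdo2*, *Ftcd*, *Gldc* and *Bckdhb* in ABpIF/+ vs Ctrl and for *Dbt* in ABpIF/F vs ABpIF/+. The shares of all genes without overlap were not recounted under other scaling. In other lists, leaving out TMM turned the median in ABpIF/F vs ABpIF/+ from -0.152 to 0.0152 for the 80 further catabolism genes and from -0.123 to 0.0434 for hepatocyte identity genes, and in ABpIF/+ vs Ctrl from 0.151 to -0.0186 for cholangiocyte markers and from 0.137 to -0.027 for clock genes. At an adjusted p under 0.05 with any fold change, 23 members were called in each comparison, with 12 higher and 11 lower, 1 and 22, and 2 and 21. When a log2 fold change beyond 2 in either direction was required, the calls numbered 1, 2 and 4 in ABpIF/+ vs Ctrl, ABpIF/F vs Ctrl and ABpIF/F vs ABpIF/+. With BG3 as the only Ctrl mouse, 4 were called in each comparison with Ctrl. With the clock gene score as covariate, 6 were called in ABpIF/F vs Ctrl and 2 in ABpIF/F vs ABpIF/+, and the cause was not tested. That score nearly coincides with the ABpIF/F group, so score and group cannot be told apart except through malpa387. Leaving out 1 mouse at a time gave 6 (without BG88) to 11, 10 to 15 and 7 (without BG38) to 13 called members, and medians of -0.271 to -0.0801, -0.918 to -0.558 and -0.815 to -0.552. Of single log2 fold changes, 198 of 234, 296 of 338 and 247 of 275 stayed on their side of the thresholds and the others lost the call. No paired analysis was possible because the replicate numbers only name mice. The analysis of the other deposited table was not run. With 3 ABpIF/F mice, small differences could not be resolved.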
